A study of Cricetulus griseus with 6 samples.

Results

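The genes examined here were those of endoplasmic reticulum (ER)-associated degradation (ERAD) and of ER ufmylation, compared between CHO-T cells transfected with negative control siRNA and with *Xbp1* siRNA. They were chosen by name from a list of 33 gene symbols, of which 31 were found among the 27873 entries of the deposited expression files, each on 1 row. *Edem2* and *Man1b1* were not matched by symbol and are not described. All 31 passed the filter on low values and were tested, among 14361 genes in all.

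The CHO-T line was made from Chinese hamster ovary cells by retroviral transfer of a mouse T-cadherin (*Cdh13*) cDNA and puromycin selection, and libraries of both groups came from it. The control group was transfected with negative control siRNA (n = 3 libraries) and the other with an siRNA of a single sequence against *Xbp1* (n = 3 libraries). Cells were collected on the second day after transfection and seeding, and stranded mRNA libraries were sequenced. The comparison addresses what happens to gene expression when *Xbp1* is silenced in these cells, a condition in which the study examined the activity of IRE1α and the production of extracellular vesicles. The labels do not say whether the 3 libraries of a group came from separate experiments, so the p-values measure the spread between libraries, part of which may be technical.

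ERAD removes misfolded proteins from the ER. Mannosidases of the EDEM family trim the glycans of such proteins, the lectins OS9 and ERLEC1 bind the trimmed chains, and the substrate is handed to a membrane complex built around the ubiquitin ligase HRD1 (encoded by *Syvn1*) and its partner SEL1L. The substrate then crosses the membrane, is ubiquitinated, and is pulled into the cytosol by the ATPase VCP for destruction by the proteasome. Ufmylation attaches the ubiquitin-like protein UFM1 to targets at the ER membrane through an enzyme cascade of its own. XBP1 is a transcription factor of the unfolded protein response, and many ERAD genes are known as its targets.

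Expression was deposited as FPKM, a fragment density normalized to transcript length and to library size. FPKM is a share of the RNA in a library, so fewer cells that express a gene and less of its RNA per cell cannot be told apart. The libraries summed to between 593490 and 666270 FPKM. The steps on which low values fell gave relative depths of 94.0% to 116% of control replicate 1, and absolute depth is unknown. As a check of the labels, *Xbp1* itself had 26.0, 26.2 and 28.4 FPKM in the control libraries and 2.18, 2.11 and 1.39 FPKM after *Xbp1* siRNA, which is 7.05% of the control mean. Of 6 epithelial markers, 3 were in the files and their summed level was 1.83 to 2.16 FPKM in the control libraries and 4.59 to 5.79 FPKM after *Xbp1* siRNA, with *Krt18* at 0 and *Epcam* and *Cdh1* passing as higher. Of 7 mesenchymal markers, 5 reached 1 FPKM, *Col1a1* was at 0, and the summed level was 1153 to 1238 FPKM and 814 to 892 FPKM, with *Vim*, *Lgals1* and *Col3a1* passing as lower, *Fn1* as higher (log2 fold change 0.83) and *Tagln2* not passing (0.02). Of 6 granulosa markers 4 were in the files, with a summed level of at most 7.25 FPKM in any library. *Fshr* and *Inhba* were at 0, while *Amh* and *Inha* reached 3.55 and 4.10 FPKM and did not pass. Of 6 leukocyte markers 5 were in the files, with a summed level of at most 8.80 FPKM. *Ptprc* and *Cd3e* were at 0, and *Cd68* passed as higher (log2 fold change 0.46). All 5 oocyte markers were in the files, with a summed level of at most 2.41 FPKM. *Zp2* and *Zp3* were at 0, while *Ddx4* and *Gdf9* reached 1.94 and 0.726 FPKM and did not pass. The part that shifts in these marker levels have in the results below was not tested.

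ERAD and ufmylation genes moved in both directions after *Xbp1* siRNA, and by moderate amounts. At an adjusted p under 0.05 (limma, Benjamini-Hochberg over all genes tested), 9 of the 31 genes were higher and 10 were lower, against 20.2% of all genes tested higher and 20.2% lower. The members were thus higher in 29.0% and lower in 32.3% of cases. Of the 8072 genes with a mean of at least 8 FPKM, a level that 30 of the 31 members reach and that was chosen after the values were seen, 24.3% were higher and 29.5% lower, shares close to those of the members. The median log2 fold change was 0.01 for the members and 0.01 for all genes tested, and the median of its size was 0.25 and 0.27.

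The limits of the study's methods also ask for a log2 fold change of at least 1 in size. By limma with that limit 0 members were called in either direction, against 5.19% of all genes tested. Without adjustment 22 members had a p under 0.05, as did 48.9% of all genes tested. At an adjusted p under 0.01 (limma), 8 members were higher and 9 lower, against 12.5% and 14.3% of all genes tested. The largest change was in *Sel1l*. The groups did not overlap, with all *Xbp1* siRNA libraries above all control libraries, for 9 members and in the opposite order for 12, against 26.1% and 25.8% of all genes tested. With 3 libraries in each group, the smallest p that an exact two-sided permutation test can give for 1 gene is 0.10. Scaling the libraries to an equal FPKM total raised the median log2 fold change of all genes by 0.13, and 15 members were then higher and 7 lower, beside 4552 and 1870 of the 14361 genes tested.

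**Figure D1:**
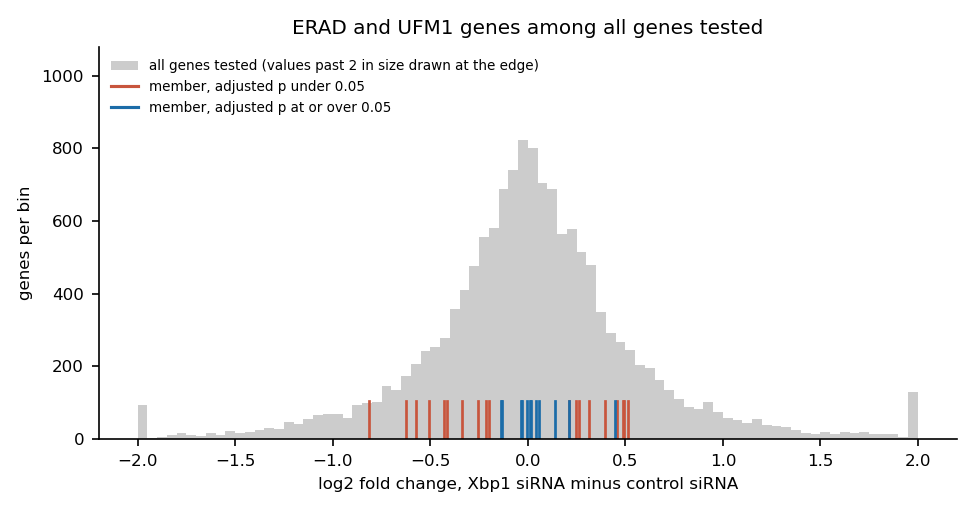
Log2 fold change (*Xbp1* siRNA minus control siRNA, x axis) of all 14361 genes tested as a histogram of genes per bin (y axis, grey), with 1 short line for each of the 31 ERAD and UFM1 genes, red at an adjusted p under 0.05 and blue otherwise. The members lie on both sides of 0 inside the limits of 1 in either direction, and *Sel1l* is farthest out at −0.81.

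In control cells the members ranged over a wide span of levels, which FPKM allows to be set side by side since it is per length. *Derl1* was the most abundant with 223 ± 4.76 FPKM (SD, n = 3), followed by *Aup1* with 152 ± 2.80 FPKM, *Hm13* with 148 ± 3.71 FPKM, *Vcp* with 105 ± 3.16 FPKM and *Nploc4* with 104 ± 0.450 FPKM. The lowest were *Derl2* with 15.6 ± 2.08 FPKM, *Tmub1* with 14.9 ± 1.65 FPKM and *Ngly1* with 10.2 ± 0.165 FPKM, apart from *Derl3*, which stood near 0. The level of *Derl1* was 21.8-fold that of *Ngly1*. The order is firm only between well separated genes. Of the 30 pairs of neighbours in it, 18 had overlapping ranges over the 3 control libraries, among them *Aup1* and *Hm13*, *Vcp* and *Nploc4*, and *Sel1l* and *Faf2*. The summed level of the 31 genes was 1714 to 1765 FPKM in the control libraries and 1749 to 1761 FPKM after *Xbp1* siRNA, so the rises and falls left the sum within the range of the controls. As a share of the library total, which was smaller after *Xbp1* siRNA, it was 0.265% to 0.266% and 0.291% to 0.296%.

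**Figure D2:**
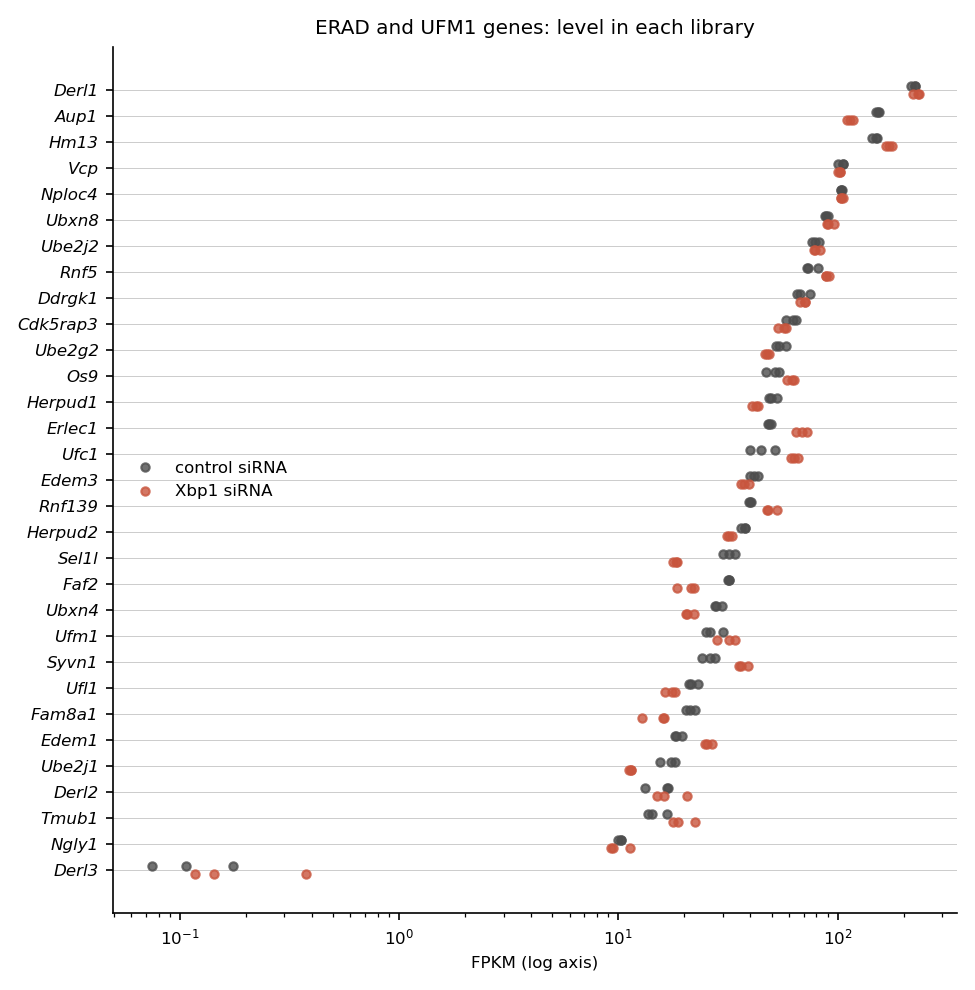
FPKM (log axis) of the 31 ERAD and UFM1 genes in each of the 3 control (grey) and 3 *Xbp1* siRNA (red) libraries, ordered by the control mean. Levels run from *Derl3* under 1 FPKM to *Derl1* above 200 FPKM, and the separation of the groups is widest for *Sel1l*.

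Of the 4 genes tested among the lectins and mannosidases that select substrates, *Edem1*, *Erlec1* and *Os9* rose, against 20.2% of all genes tested, and *Edem3* did not pass the test. *Edem1*, whose product trims mannose from misfolded glycoproteins, had 18.3, 19.5 and 18.1 FPKM in the control libraries and 25.4, 24.7 and 26.6 FPKM after *Xbp1* siRNA. Every *Xbp1* siRNA library was above every control (log2 fold change 0.46, SE 0.054, limma adjusted p = 5.03e-04). *Erlec1*, a lectin of the HRD1 complex, had 48.4, 48.0 and 49.6 FPKM in the control libraries and 68.7, 72.2 and 64.9 FPKM after *Xbp1* siRNA. This is 141% of the control mean (log2 fold change 0.49, SE 0.047, limma adjusted p = 1.67e-04). *Os9*, the related lectin, rose less, from 51.1 ± 3.60 FPKM to 61.3 ± 2.22 FPKM (SD, n = 3), with a log2 fold change of 0.26 (limma adjusted p = 0.00959). *Edem3*, another mannosidase of the family, went the other way, with 39.7, 41.5 and 43.5 FPKM in the control libraries and 36.4, 37.4 and 39.4 FPKM after *Xbp1* siRNA. The groups did not overlap, but its log2 fold change of −0.14 (95% interval −0.26 to −0.02) had an adjusted p of 0.0646 (limma). It passed without control replicate 1 (limma adjusted p = 0.0439) and with the replicate number as a block (limma adjusted p = 0.0344), while with an equal FPKM total its log2 fold change was −0.0034 (limma adjusted p = 0.970) and after quantile normalization −0.09 (limma adjusted p = 0.200).

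At the core of the machinery, the HRD1 ligase and its partner moved in opposite directions. *Sel1l*, which encodes the scaffold that stabilises HRD1 and links it to the lectins, had 30.1, 34.2 and 32.1 FPKM in the control libraries and 17.8, 18.6 and 18.3 FPKM after *Xbp1* siRNA. All 3 silenced libraries were far below the controls, at 56.6% of the control mean (log2 fold change −0.81, SE 0.059, limma adjusted p = 4.48e-05). *Syvn1*, the gene of HRD1, had 27.5, 24.1 and 26.1 FPKM in the control libraries and 39.2, 35.5 and 36.4 FPKM after *Xbp1* siRNA. It was higher in each silenced library, at 143% of the control mean (log2 fold change 0.51, SE 0.063, limma adjusted p = 5.91e-04).

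Within a library, the ratio of *Sel1l* to *Syvn1* does not depend on how the libraries are scaled. It was 1.10, 1.42 and 1.23 in the control libraries and 0.453, 0.524 and 0.501 after *Xbp1* siRNA, so that *Sel1l* was above *Syvn1* in every control library and below it in every silenced one. The log2 ratio changed by −1.33, from 0.31 ± 0.19 to −1.02 ± 0.11 (SD, n = 3), and omission of any single library left it between −1.42 and −1.24. The exact two-sided permutation p was 0.10, the smallest that this design allows. This p was fixed by the single genes, since *Sel1l* was lower and *Syvn1* higher in every silenced library than in every control. It adds no support of its own.

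The other genes of this group encode proteins that join the HRD1 complex, and each of them fell. *Fam8a1*, whose product binds HRD1, had 21.2, 20.4 and 22.3 FPKM in the control libraries and 12.9, 16.2 and 16.0 FPKM after *Xbp1* siRNA (log2 fold change −0.51, SE 0.094, limma adjusted p = 0.00424). *Xbp1* siRNA replicate 1 was the lowest. *Herpud1*, a stress-induced adaptor of the complex, fell from 50.4 ± 2.22 to 42.2 ± 1.36 FPKM (SD, n = 3), with a log2 fold change of −0.25 (limma adjusted p = 0.00421). *Herpud2*, its relative, fell from 37.2 ± 0.954 to 32.1 ± 0.844 FPKM (SD, n = 3), with a log2 fold change of −0.21 (limma adjusted p = 0.00613). With libraries scaled to an equal FPKM total, *Herpud1* and *Herpud2* were still lower but did not pass, with adjusted p of 0.0854 and 0.211 (limma). In all, 4 of the 5 genes of this group fell and 1 rose, against 20.2% of all genes tested in each direction.

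**Figure D3:**
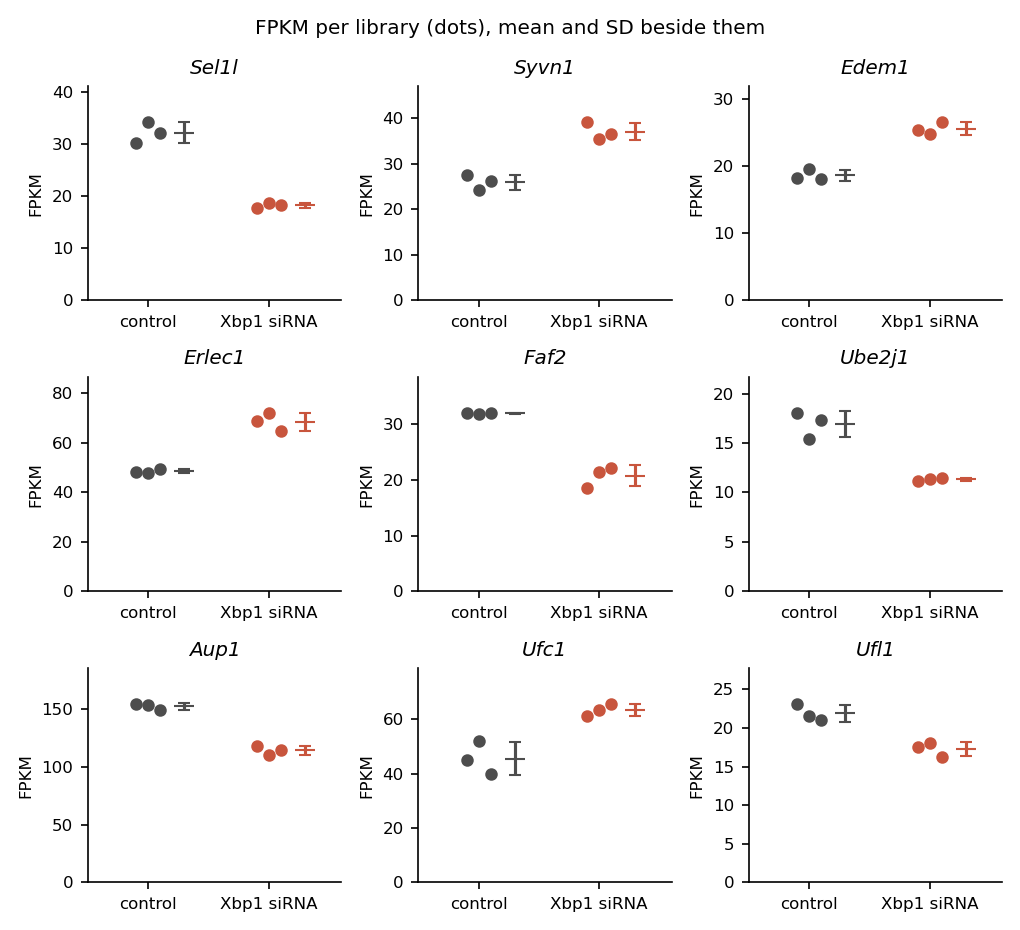
FPKM (y axis, from 0) in the control (grey) and *Xbp1* siRNA (red) libraries for 9 members, with dots for libraries and the mean and SD (n = 3) beside them. *Syvn1*, *Edem1*, *Erlec1* and *Ufc1* were higher and *Sel1l*, *Faf2*, *Ube2j1*, *Aup1* and *Ufl1* lower, without overlap between the groups.

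Of the 4 genes of membrane proteins linked to retrotranslocation, 1 rose and 3 did not pass, which is near the 20.2% of all genes tested that rose. *Derl1*, *Derl2* and *Derl3* encode derlins, rhomboid-like proteins through which substrates are thought to leave the ER. *Derl1* had 226, 224 and 217 FPKM in the control libraries and 234, 232 and 221 FPKM after *Xbp1* siRNA. These ranges overlap, and the log2 fold change was 0.04 (95% interval −0.04 to 0.12, limma adjusted p = 0.373). *Derl1* passed as higher with libraries scaled to an equal FPKM total (log2 fold change 0.18, limma adjusted p = 0.00414) and after quantile normalization (0.19, limma adjusted p = 0.00267). *Derl2* had 16.6, 13.2 and 16.9 FPKM in the control libraries and 16.1, 20.6 and 15.02 FPKM after *Xbp1* siRNA. Here the spread within groups was wide (log2 fold change 0.14, 95% interval −0.19 to 0.47, limma adjusted p = 0.469), so that neither a modest rise nor a modest fall is resolved.

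*Derl3*, a derlin known from secretory tissues, was barely detected. It had 0.175, 0.0743 and 0.107 FPKM in the control libraries and 0.143, 0.117 and 0.375 FPKM after *Xbp1* siRNA. Only *Xbp1* siRNA replicate 3 stood apart, and at this level a difference was not detectable (log2 fold change 0.45, 95% interval −0.63 to 1.52, limma adjusted p = 0.480). Its values did not fall on whole multiples of a single step, within 0.05 reads, for up to 30 reads, and they were not converted to reads. *Hm13*, which encodes signal peptide peptidase, an intramembrane protease that also acts in ERAD, was the member of this group that rose. It had 150, 151 and 144 FPKM in the control libraries and 177, 171 and 166 FPKM after *Xbp1* siRNA (log2 fold change 0.21, SE 0.036, limma adjusted p = 0.00287).

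Among the ubiquitin-conjugating (E2) enzymes, the E2 recruiter and other ligases, 3 of 7 genes rose, 3 fell and 1 did not pass, where 20.2% of all genes tested rose and 20.2% fell. *Ube2j1*, the membrane-anchored E2 that works with HRD1, had 18.1, 15.4 and 17.3 FPKM in the control libraries and 11.1, 11.4 and 11.5 FPKM after *Xbp1* siRNA. All silenced libraries were lower, at 66.9% of the control mean (log2 fold change −0.57, SE 0.072, limma adjusted p = 6.36e-04). *Ube2j2*, its paralog, had 82.2, 78.8 and 76.8 FPKM and 78.9, 78.3 and 82.8 FPKM. The groups overlapped (log2 fold change 0.01, 95% interval −0.08 to 0.11, limma adjusted p = 0.831), and the interval of *Ube2j1*, from −0.74 to −0.40, lies apart from it. With an equal FPKM total *Ube2j2* passed as higher (log2 fold change 0.15, limma adjusted p = 0.0122).

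*Aup1* encodes a protein that recruits the E2 enzyme UBE2G2 to the ER membrane and to lipid droplets. It had 155, 153 and 149 FPKM in the control libraries and 118, 110 and 115 FPKM after *Xbp1* siRNA, a clear separation (log2 fold change −0.41, SE 0.036, limma adjusted p = 1.16e-04). *Ube2g2* had 58.2, 53.9 and 52.1 FPKM and 48.4, 47.8 and 46.5 FPKM (log2 fold change −0.20, limma adjusted p = 0.0143). It did not pass without *Xbp1* siRNA replicate 3 (limma adjusted p = 0.0534) or with an equal FPKM total (limma adjusted p = 0.276).

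The ligase genes outside the HRD1 complex rose, as did *Tmub1*. *Rnf139*, which encodes TRC8, rose from 39.8 ± 0.449 to 49.6 ± 3.07 FPKM (SD, n = 3), with a log2 fold change of 0.32 (limma adjusted p = 0.00212). *Rnf5* rose from 75.7 ± 4.79 to 89.7 ± 1.83 FPKM (SD, n = 3), with a log2 fold change of 0.25 (limma adjusted p = 0.00607). *Tmub1*, a membrane protein with a ubiquitin-like domain, had 16.8, 13.6 and 14.3 FPKM in the control libraries and 22.4, 17.8 and 18.8 FPKM after *Xbp1* siRNA (log2 fold change 0.40, limma adjusted p = 0.0229). In both groups replicate 1 was the highest, and *Tmub1* did not pass without control replicate 2, control replicate 3 or *Xbp1* siRNA replicate 1 (adjusted p of 0.0747, 0.0683 and 0.0609, limma), or without the intensity trend (limma adjusted p = 0.0575).

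The extraction ATPase itself did not pass the test, while genes of 2 of its membrane anchors fell. Of the 6 genes of VCP, its cofactors and deglycosylation, 2 fell and 4 did not pass, where 20.2% of all genes tested fell. *Vcp* had 100.9, 106 and 106 FPKM in the control libraries and 103, 99.99 and 103 FPKM after *Xbp1* siRNA (log2 fold change −0.04, 95% interval −0.12 to 0.05, limma adjusted p = 0.452). *Nploc4*, whose product forms with UFD1 the cofactor of VCP that binds ubiquitinated substrates, had 104, 105 and 104 FPKM and 105, 103 and 103 FPKM (log2 fold change −0.0027, 95% interval −0.07 to 0.07, limma adjusted p = 0.953). These are narrow intervals around 0. With an equal FPKM total *Vcp* and *Nploc4* turned higher, and *Nploc4* then passed (log2 fold changes 0.10 and 0.13, adjusted p of 0.0839 and 0.0107, limma). The ratio of *Nploc4* to *Vcp* was 0.976 to 1.03 in the control libraries and 1.01 to 1.03 after *Xbp1* siRNA, with overlapping groups (exact two-sided permutation p = 0.30).

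*Faf2*, which encodes UBXD8, a hairpin protein that holds VCP at the ER and at lipid droplets, had 32.0, 31.8 and 31.9 FPKM in the control libraries and 18.5, 21.4 and 22.2 FPKM after *Xbp1* siRNA. After *Sel1l* it had the largest decrease among the members, to 64.9% of the control mean (log2 fold change −0.63, SE 0.070, limma adjusted p = 3.83e-04). *Ubxn4*, the gene of erasin, another ER membrane protein that binds VCP, had 29.6, 28.0 and 27.7 FPKM in the control libraries and 20.4, 22.1 and 20.6 FPKM after *Xbp1* siRNA (log2 fold change −0.43, SE 0.053, limma adjusted p = 6.10e-04). *Ubxn8*, another membrane anchor of VCP, had 87.2, 88.3 and 90.4 FPKM and 89.6, 90.9 and 96.3 FPKM. Its log2 fold change was 0.06 (95% interval −0.03 to 0.15, limma adjusted p = 0.283), with overlapping groups, and it passed as higher with an equal FPKM total (limma adjusted p = 0.00681) and after quantile normalization (limma adjusted p = 0.0422). *Ngly1*, the cytosolic enzyme that strips N-glycans from extracted proteins, had 10.2 ± 0.165 and 10.02 ± 1.13 FPKM (SD, n = 3), with a log2 fold change of −0.03 (95% interval −0.24 to 0.18, limma adjusted p = 0.813).

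**Figure D4:**
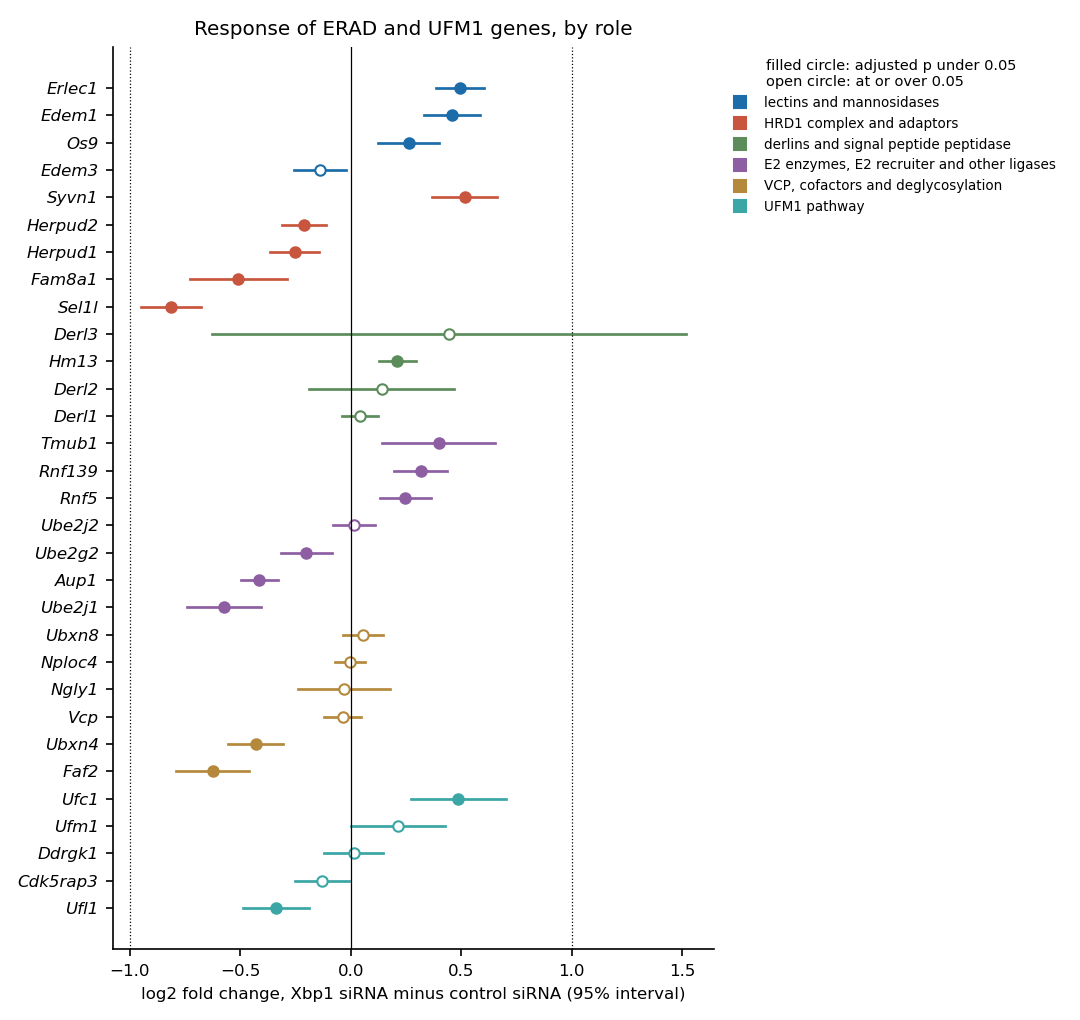
Log2 fold change of each member (x axis, *Xbp1* siRNA minus control siRNA) with its 95% interval from limma, grouped by role, with filled circles at an adjusted p under 0.05 and dotted lines at −1 and 1. *Syvn1* and *Sel1l* lie at opposite ends of the HRD1 group, and *Faf2* and *Ubxn4* apart from the other VCP genes.

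Of the 5 genes of the UFM1 cascade, 1 rose, 1 fell and 3 did not pass, which is near the shares among all genes tested (20.2% higher and 20.2% lower). *Ufc1*, which encodes the E2 enzyme of the cascade, had 44.9, 52.0 and 39.7 FPKM in the control libraries and 61.2, 63.6 and 65.7 FPKM after *Xbp1* siRNA. The control libraries were spread widely and still lay below all silenced ones (log2 fold change 0.49, SE 0.091, limma adjusted p = 0.00445). *Ufl1*, the gene of the UFM1 ligase, had 23.1, 21.6 and 21.0 FPKM in the control libraries and 17.6, 18.1 and 16.3 FPKM after *Xbp1* siRNA, which is 79.0% of the control mean (log2 fold change −0.34, SE 0.063, limma adjusted p = 0.00438).

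The other 3 UFM1 genes did not pass. *Ufm1*, the modifier, had 25.2, 26.2 and 29.95 FPKM in the control libraries and 28.1, 34.1 and 32.1 FPKM after *Xbp1* siRNA (log2 fold change 0.21, limma adjusted p = 0.102). It passed as higher without control replicate 3 (limma adjusted p = 0.0461), without *Xbp1* siRNA replicate 1 (limma adjusted p = 0.0388) and with an equal FPKM total (limma adjusted p = 0.0216). *Ddrgk1* and *Cdk5rap3* encode partners of the ligase at the ER membrane. *Ddrgk1* had 69.1 ± 5.07 and 69.6 ± 2.11 FPKM (SD, n = 3), with a log2 fold change of 0.01 (95% interval −0.12 to 0.15, limma adjusted p = 0.872), and passed as higher with an equal FPKM total (0.15, limma adjusted p = 0.0456). *Cdk5rap3* had 62.9, 64.4 and 58.0 FPKM and 58.0, 53.8 and 57.2 FPKM (log2 fold change −0.13, 95% interval −0.25 to −0.0096, limma adjusted p = 0.0825). The groups of *Cdk5rap3* touched without crossing, and it passed as lower without control replicate 3 (limma adjusted p = 0.0325).

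The ratio of *Ufl1* to *Ufm1*, ligase over modifier, was 0.918, 0.823 and 0.701 in the control libraries and 0.625, 0.529 and 0.506 after *Xbp1* siRNA. Every silenced library was below every control, with a log2 change of −0.55, and between −0.66 and −0.46 on omission of any single library (exact two-sided permutation p = 0.10). The ratio of *Os9* to *Erlec1* also separated the groups, at 1.12, 0.982 and 1.05 against 0.920, 0.815 and 0.951, a log2 change of −0.23 (exact two-sided permutation p = 0.10). The ratio of *Derl2* to *Derl1* was 0.0736, 0.0587 and 0.0779 against 0.0687, 0.0885 and 0.0679, with overlapping groups (exact two-sided permutation p = 0.60).

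**Figure D5:**
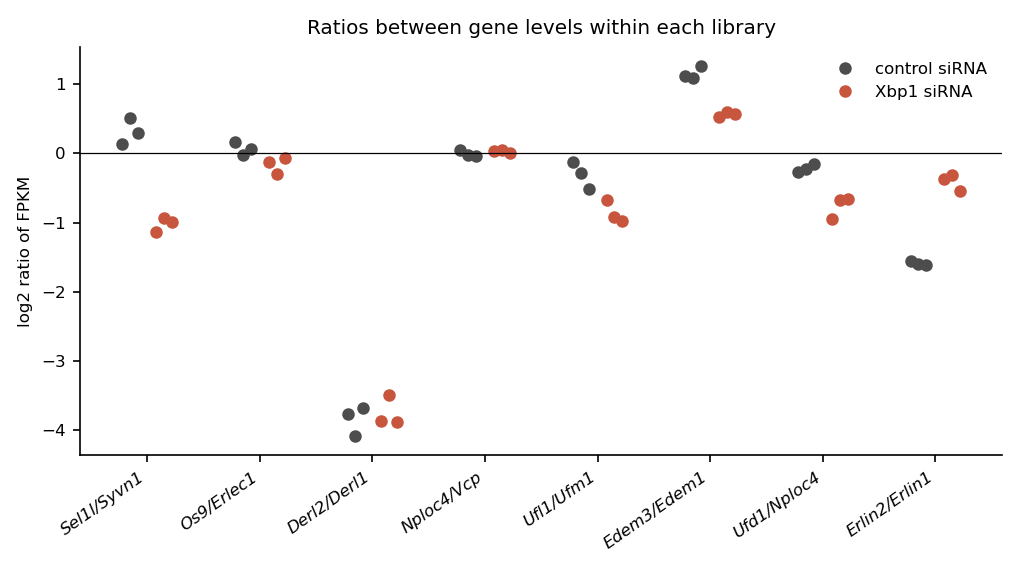
Log2 ratio of FPKM (y axis) between 2 genes in each control (grey) and *Xbp1* siRNA (red) library, the last 3 ratios having been chosen after their values were seen. *Sel1l*/*Syvn1* and *Ufl1*/*Ufm1* were lower in every silenced library than in every control, while *Nploc4*/*Vcp* and *Derl2*/*Derl1* overlapped.

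From a list of 62 further symbols for ERAD and UFM1 genes, some of them older names of the same gene, 53 were in the files and 51 were tested. Of these, 13 were higher (25.5%) and 9 lower (17.6%) at an adjusted p under 0.05 (limma), near the 20.2% higher and 20.2% lower among all genes tested, with a median log2 fold change of −0.02. The largest decreases were in *Rnf170*, which encodes an ER ubiquitin ligase, from 2.90 ± 0.149 to 1.18 ± 0.214 FPKM (SD, n = 3), with a log2 fold change of −1.24 (limma adjusted p = 0.00103), and in *Dnajc10*, the reductase ERdj5 that opens disulfide bonds of ERAD substrates, from 38.8 ± 1.15 to 23.8 ± 0.568 FPKM, with −0.70 (limma adjusted p = 2.53e-05). *Ufd1*, the partner of *Nploc4*, fell from 89.6 ± 3.82 to 61.5 ± 6.11 FPKM (SD, n = 3), with a log2 fold change of −0.55 (limma adjusted p = 9.41e-04). *Rnf170* was the only gene of this list past a log2 fold change of 1 in size.

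The folding sensors *Uggt1* and *Uggt2*, which return a glucose to the glycans of unfolded proteins, both rose. *Uggt1* had 20.9, 22.4 and 22.9 FPKM in the control libraries and 31.3, 33.1 and 30.6 FPKM after *Xbp1* siRNA (log2 fold change 0.52, limma adjusted p = 2.88e-04). *Uggt2* had 4.28, 4.71 and 4.34 FPKM and 6.44, 7.21 and 7.29 FPKM, with 0.64 (limma adjusted p = 0.00131). With an equal FPKM total, 22 of these further genes passed as higher and 5 as lower, beside 4552 and 1870 of the 14361 genes tested.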

How the data were processed

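RNA of CHO-T cells with control siRNA and *Xbp1* siRNA was sequenced by the authors (3 libraries each). The authors deposited FPKM values, 1 library per file, by gene symbol. The submitters' processing notes name HISAT2 2.1.0 and Cuffdiff 2.2.1. The genome build and annotation are not given in the sources used here, so no coordinates or sequences are printed, and an intended search of promoters for motifs was not made. Reads shared with paralogs or pseudogenes could not be examined.

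Groups followed the sample titles. Log2(FPKM + 0.1) was tested with limma 3.58.1 in R 4.3.3 (lmFit, eBayes with an intensity trend) across all genes with a mean of at least 0.1 FPKM, with Benjamini-Hochberg adjustment of p. A gene passed at an adjusted p under 0.05, and was called when its log2 fold change was also at least 1 in size. Fold changes are on this scale, which understates the change of low genes. The fit was run on simulated data with known changes before use. No count model was used, since FPKM are not counts. Depth was read only relatively, from the ratios of low values, and the number of libraries limits the precision. Libraries of a group correlated across genes with r of 0.966 to 0.972.

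Python 3.11.15, pandas 2.3.3 and scipy 1.17.1 served the other steps. All members were named. Of the further list, up to 4 genes in each direction were named by largest change among those that passed with a mean of at least 1 FPKM and no overlap between groups. *Insig2* falls outside this rule and was chosen after its values were seen. Members and lists were chosen with earlier results of these data known. Alternatives were other pseudocounts, filters, scalings and thresholds, eBayes without trend, a replicate block and leaving out each library.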

Additional observations from a re-analysis of the deposited data

How the results depend on the processing

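Of the 19 members that passed, 15 kept their direction and their side of the threshold under each of the 15 alternative fits, and none of the 19 changed direction in any of them. Requiring a log2 fold change of 1 left 0 members higher and 0 lower, and 386 and 359 of all genes tested. An adjusted p under 0.01 left 8 members higher and 9 lower, and 1793 and 2048 of all genes. Scaling to an equal FPKM total gave 15 members higher with a median log2 fold change of 0.15, 22 further pathway genes higher and 5 lower, and 4552 and 1870 of all genes. It shifts each gene upwards by construction, since the silenced libraries have the smaller totals. Under it the direction turned, with log2 fold changes of 0.10 for *Vcp*, 0.13 for *Nploc4*, 0.10 for *Ngly1* and 0.0029 for *Cdk5rap3*. After quantile normalization *Vcp* had 0.0435 and *Nploc4* 0.0763. Leaving out each library in turn gave 8 to 9 members higher and 9 to 11 lower (2294 to 2640 and 2522 to 2676 of all genes), a median between −0.0094 and 0.04, and a range across 0 for *Ube2j2* (−0.012 to 0.0397), *Nploc4* (−0.012 to 0.0022), *Ngly1* (−0.12 to 0.0196) and *Ddrgk1* (−0.027 to 0.0724), none of which passed. With the replicate number as a block, 9 members were higher and 11 lower, and 2767 and 2875 of all genes. Like-numbered libraries were not treated as pairs, as their deviations correlated across genes with r of −0.029, −0.027 and −0.012. The ratio of *Edem2* to *Edem1* was not run, as *Edem2* was not matched.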

Other observations

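In 2 pairs of related genes of the pathway, *Erlin1* and *Erlin2* and *Insig1* and *Insig2*, both genes passed, in opposite directions. These pairs and the ratios that follow were chosen after their values were seen and are given as a description. *Erlin1* and *Erlin2* encode the subunits of a ring-shaped complex that, with the ligase of *Rnf170*, degrades activated inositol trisphosphate receptors. *Erlin1* had 45.4, 45.9 and 45.4 FPKM in the control libraries and 30.2, 31.7 and 32.2 FPKM after *Xbp1* siRNA (log2 fold change −0.54, limma adjusted p = 5.91e-05). *Erlin2* had 15.5, 15.2 and 14.9 FPKM and 23.5, 25.6 and 22.01 FPKM (log2 fold change 0.64, limma adjusted p = 2.48e-04). The ratio of *Erlin2* to *Erlin1* was 0.341, 0.331 and 0.327 in the control libraries and 0.776, 0.807 and 0.684 after *Xbp1* siRNA, so the gap between the levels narrowed in each silenced library.

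*Insig1* and *Insig2* encode ER proteins that hold back the activation of sterol synthesis genes and link reductase of that pathway to ERAD ligases. *Insig1* rose from 4.87 ± 0.0919 to 8.20 ± 0.831 FPKM (SD, n = 3), with a log2 fold change of 0.74 (limma adjusted p = 7.72e-04), while *Insig2* fell from 12.9 ± 1.01 to 10.1 ± 0.421 FPKM, with −0.34 (limma adjusted p = 0.0107). The ratio of *Edem3* to *Edem1* was 2.17, 2.13 and 2.41 in the control libraries and 1.43, 1.51 and 1.48 after *Xbp1* siRNA. The ratio of *Ufd1* to *Nploc4*, whose products act as a dimer, was 0.827, 0.853 and 0.901 and then 0.517, 0.626 and 0.632, with a log2 change of −0.55. For each of these 3 ratios the groups did not overlap. For *Erlin2* to *Erlin1* and *Edem3* to *Edem1* this follows from the single genes, which separated the groups in opposite directions. As the ratios were picked by their values, no p is given for them.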
